A study of Mus musculus with 6 samples.

Results

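The genes described here are 49 components of bone morphogenetic protein (BMP) and transforming growth factor beta (TGF-beta) signalling in Cxcl12-abundant reticular (CAR) cells of mouse bone marrow. They were taken by name as a list of ligands, receptors, Smad proteins, Id genes and extracellular antagonists, with earlier results of these data known. They are 49 of the 19938 genes that had a probe set of their own on the array. CAR cells that Dmp1-Cre had targeted were compared with CAR cells that it had not, on 3 arrays for each population. Both populations came from the femur and tibia marrow of C57BL/6 mice 7 weeks of age with the same genotype, Dmp1-Cre with Cxcl12-gfp on 1 allele. In Dmp1-Cre mice the Cre recombinase is expressed under control elements of the Dmp1 gene, which is active mainly in osteocytes and mature osteoblasts. The labels do not say how targeted cells were recognised in the sort. Each sample held the sorted cells of 1 mouse, and both populations came from 3 mice, with no label that ties the samples of a mouse together.

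BMPs, growth and differentiation factors (GDFs), TGF-betas and activins are secreted dimers that bring together type I and type II serine/threonine kinase receptors at the cell surface. Activated receptors phosphorylate Smad proteins, Smad1, Smad5 and Smad9 after BMPs and Smad2 and Smad3 after TGF-betas and activins, which enter the nucleus with Smad4. Smad6 and Smad7 inhibit the pathway from within the cell, and secreted antagonists such as gremlin, chordin, noggin and follistatin hold ligands away from the receptors. In marrow and bone, BMPs are best known for driving osteoblast formation, and TGF-beta is stored in bone matrix bound to latent TGF-beta binding proteins.

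The arrays' median intensities ran from 79.4 to 87.5, and no pair of arrays held identical values. The log2 intensity of Dmp1 was 9.89 to 11.28 on targeted arrays, against 6.91 to 7.51 on non-targeted arrays. All 10 CAR cell markers examined, among them Cxcl12, Lepr and Foxc1, were above the limit set for dim genes, a log2 intensity of 6.00. Of 10 endothelial markers 6 were dim, Pecam1, Kdr, Tek and Emcn included, and of 5 general leukocyte markers Ptprc and Cd53 were dim. Together, 10 neutrophil markers gave a summed intensity of 1039 on targeted array 1 and of 8003 to 14001 on the other 5 arrays. Targeted array 1 and non-targeted array 2 were close to each other on the first principal component, at -28.5 and -25.2, against -4.34 to 28.6 for the other arrays. Xist was at 12.00 on targeted array 1 and 11.31 on non-targeted array 1, and at 5.64 to 5.88 on the other 4 arrays. The mice may thus differ in sex, which the labels do not give and for which the fit had no term.

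Among the 49 members, 48 passed the filter on dim genes, and Bmpr1b, a type I BMP receptor, was dim at 4.18 to 4.50 on targeted arrays and 4.04 to 4.26 on non-targeted arrays. Of the 48, 35 (72.9%) were lower and 13 higher in targeted cells, where 51.1% of all 13292 genes tested were lower. The median log2 difference of the members was -0.12, against -0.005 over all genes. No member passed the threshold, an adjusted p under 0.05 from limma's moderated linear model, and 0% of all genes did (0 of 13292). The members' adjusted p ran from 0.849 to 1.00. At an unadjusted p under 0.05, 5 members were lower (10.4%, against 3.42% of all genes) and 3 were higher (6.25%, against 1.35% of all genes), where 4.77% of all genes had such a p in either direction. The 3 targeted arrays lay entirely below the 3 non-targeted arrays for 5 members, or 10.4%, against 5.76% of all genes, and entirely above them for 2 members, or 4.17%, against 3.32%. In either direction 9.07% of all genes did not overlap. In sorted populations measured in bulk, fewer cells that express a gene and less of its RNA per cell cannot be told apart.

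The lean towards lower values varied with the arrays used. Leaving out non-targeted array 2 left 29 of 48 members lower with a median of -0.045. Of all genes, 52.6% were then lower, with a median of -0.013. Leaving out non-targeted array 1 left 34 members lower with a median of -0.19, against 49.7% of all genes and a median of 0.002. Leaving out any one of the other arrays gave 34 to 38 members lower and medians from -0.13 to -0.10. There 49.1% to 54.2% of all genes were lower, with medians from -0.02 to 0.007. The 95% interval of the log2 difference lay within a 2-fold change in both directions for 41 of the 48 members (85.4%, against 86% of all genes). For 40 of 48 members it included no difference at all.

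**Figure D1:**
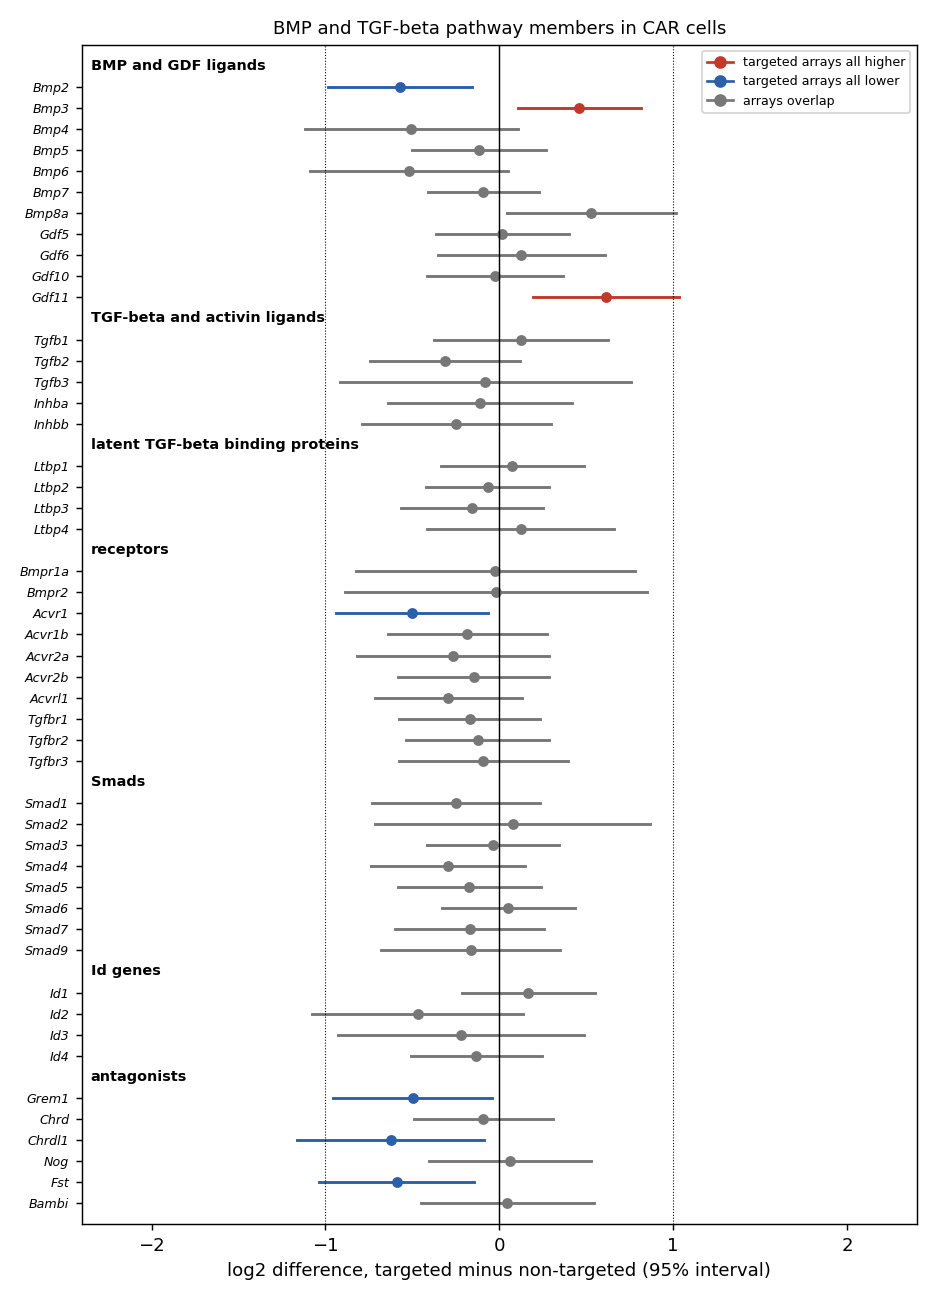
Log2 difference between targeted and non-targeted CAR cells for the 48 members tested, grouped by role; points are the fitted differences over 3 arrays per group, lines their 95% intervals, and dotted lines a 2-fold change. Red and blue mark the 2 members whose targeted arrays were all higher and the 5 whose targeted arrays were all lower; the differences ran from -0.63 (Chrdl1) to 0.62 (Gdf11).

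The 5 members lower on every targeted array were Bmp2, Acvr1, Grem1, Chrdl1 and Fst, and the 2 higher on every targeted array were Bmp3 and Gdf11. RefSeq promoter sequences (GRCm38.p6) were at hand for 3 of these 7, Acvr1, Gdf11 and Grem1, and not for Bmp2, Bmp3, Chrdl1 and Fst. They are shown because these are the promoters of genes that separated the groups, as the 250 bases before the transcript start, 5′ to 3′ on the strand of the gene. Capitals mark 2 short motifs that Smad proteins are known to bind, the GC-rich motif GGCGCC and the Smad box GTCTG. Both strands were searched, on which the Smad box can also read CAGAC, and where the motifs adjoin they can share 1 letter. The windows are chr2:58566829-58567078, minus strand, for Acvr1, chr10:128891719-128891968, minus strand, for Gdf11, and chr2:113758649-113758898, minus strand, for Grem1.
Acvr1: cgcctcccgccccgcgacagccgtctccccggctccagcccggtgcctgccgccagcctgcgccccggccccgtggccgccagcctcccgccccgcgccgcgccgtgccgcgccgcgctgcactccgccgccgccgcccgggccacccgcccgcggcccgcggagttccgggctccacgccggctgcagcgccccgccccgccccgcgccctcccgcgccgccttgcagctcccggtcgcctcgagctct
Gdf11: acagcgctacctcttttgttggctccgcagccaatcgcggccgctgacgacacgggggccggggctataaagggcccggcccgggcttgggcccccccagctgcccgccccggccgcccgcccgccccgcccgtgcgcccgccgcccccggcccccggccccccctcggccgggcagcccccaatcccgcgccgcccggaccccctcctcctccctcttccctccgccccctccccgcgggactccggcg
Grem1: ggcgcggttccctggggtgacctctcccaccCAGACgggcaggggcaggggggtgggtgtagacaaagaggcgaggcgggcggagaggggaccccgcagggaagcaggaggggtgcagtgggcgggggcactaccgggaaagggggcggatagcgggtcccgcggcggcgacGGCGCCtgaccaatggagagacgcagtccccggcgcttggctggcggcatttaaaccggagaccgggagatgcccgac
The Grem1 window held 1 match to each motif, and the other 2 windows held none of these letters. Of 41 windows of 33 members, 26.8% held GGCGCC and 43.9% held GTCTG, against 9.6% and 42.2% of all 32851 windows. Windows of the same gene were counted separately, and some of them overlap, as for Ltbp4 and Smad5. The member windows were richer in G and C, with a median of 66.4%, against 52.4% for all windows.

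Among the 11 BMP and GDF ligand genes, 6 were lower and 5 higher in targeted cells, and their log2 differences had a median of -0.026 (0.016 under quantile scaling, and -0.076 to 0.014 when any one array was left out). Bmp2, an inducer of osteoblast formation, had log2 intensities of 9.30, 9.35 and 8.86 on targeted arrays 1, 2 and 3, against 9.73, 9.66 and 9.83 on non-targeted arrays 1, 2 and 3 (probe set 10476395). All targeted arrays lay below all non-targeted arrays, by 1.49-fold on average (log2 difference -0.57, SE 0.18, 95% interval -0.99 to -0.16). The unadjusted p was 0.0133 and the limma adjusted p 0.931. Without targeted array 3, the lowest, the difference was -0.41.

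Bmp4 and Bmp6, also able to induce bone, overlapped between the groups. Bmp6 was at 11.82, 11.01 and 10.95 on targeted arrays, against 11.80, 11.85 and 11.69 on non-targeted arrays. Targeted array 1 alone stood at the non-targeted level, and the log2 difference was -0.52 (95% interval -1.09 to 0.05) over all arrays and -0.80 without that array. Bmp4 was at 9.60 to 10.30 on targeted arrays, against 10.09 to 10.86 in non-targeted cells, a difference of -0.51 (95% interval -1.12 to 0.11). Its highest value was on non-targeted array 2, without which the difference was -0.27. Bmp5 differed by -0.12, with 10.57 to 10.69 on targeted arrays and 10.60 to 11.02 on non-targeted arrays.

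The ligand genes with the clearest higher values in targeted cells were Gdf11, Bmp3 and Bmp8a. Gdf11, a ligand of the activin type known for patterning the axial skeleton, was at 7.99, 7.77 and 8.35 on targeted arrays, against 7.42 on each of the 3 non-targeted arrays (probe set 10373583). It was 1.53-fold higher (log2 difference 0.62, SE 0.18, 95% interval 0.20 to 1.04), with an unadjusted p of 0.00983 and a limma adjusted p of 0.849, the smallest of the members. Without targeted array 3 the difference was 0.46. Bmp3, an atypical BMP that opposes osteogenic BMPs, was at 7.53, 7.60 and 7.31, against 7.08, 6.91 and 7.07 (probe set 10523506). Its targeted arrays were all higher, by 1.38-fold (log2 difference 0.46, SE 0.15), with an adjusted p of 0.947, and its difference stayed between 0.40 and 0.55 when any one array was left out.

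Bmp8a was at 7.45, 7.94 and 7.72 on targeted arrays, against 7.52, 6.99 and 7.00 on non-targeted arrays. The groups overlapped through the replicate 1 arrays of each, and the log2 difference was 0.53 (95% interval 0.05 to 1.02, adjusted p = 1.00). Bmp7, Gdf5 and Gdf6 were close to the dim limit on all arrays. Bmp7, a BMP of kidney and skeleton, was at 6.49 to 6.63 on targeted arrays, against 6.60 to 6.67 on non-targeted arrays (difference -0.092). Gdf5 and Gdf6, both genes of joint formation, differed by 0.018 and 0.13. Gdf10, a close relative of Bmp3, was at 8.16 to 8.60 on targeted arrays, against 8.33 to 8.52 on non-targeted arrays, a difference of -0.026.

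**Figure D2:**
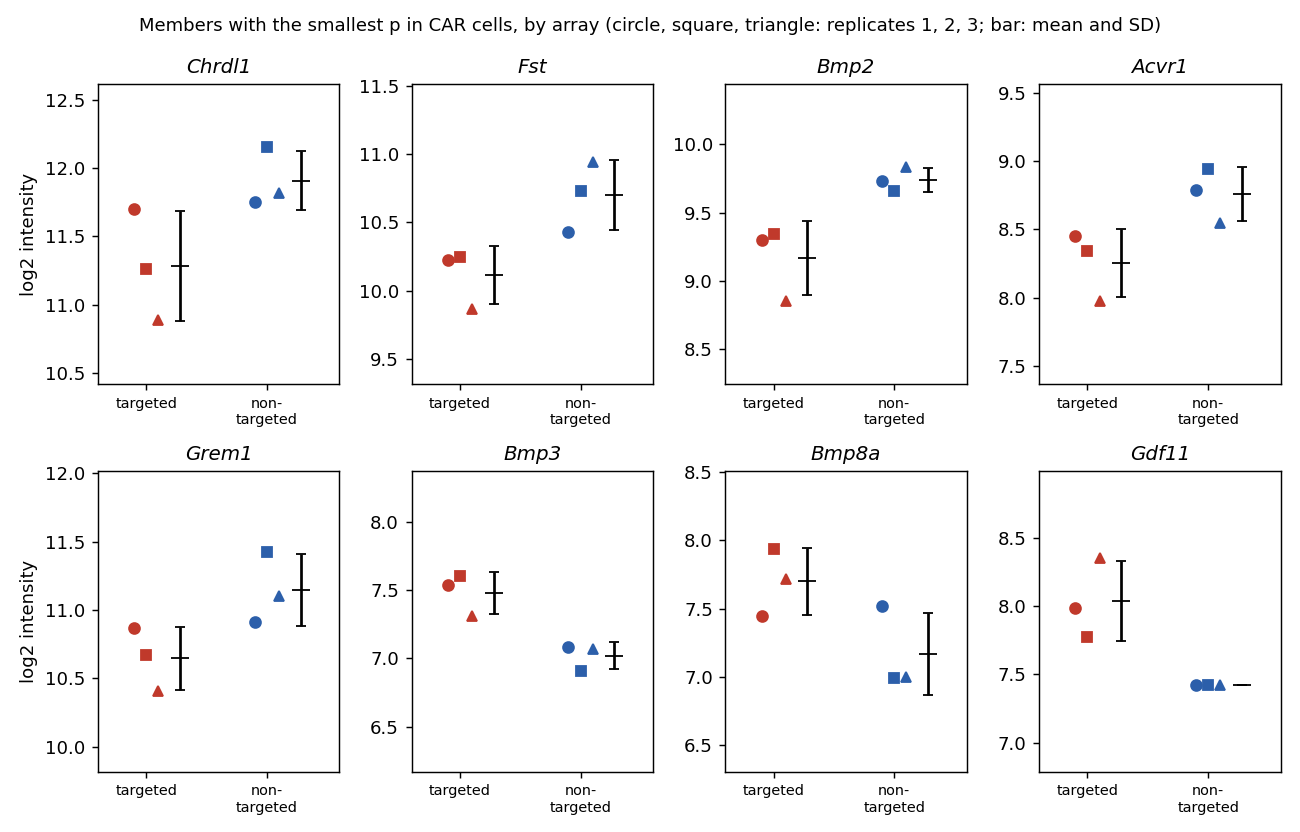
Log2 intensity on each array of the 8 members with an unadjusted p under 0.05, targeted cells (red) left and non-targeted cells (blue) right; all panels span the same number of log2 units, and black bars are means with SD over 3 arrays. In 7 panels there is no overlap between the groups, and for Bmp8a targeted array 1 (7.45) lies below non-targeted array 1 (7.52).

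Among the 5 TGF-beta and activin ligand genes, 4 were lower and 1 higher. Their median difference was -0.11 on the log2 scale, and all 5 overlapped between the groups. It was -0.045 without non-targeted array 2, -0.069 without targeted array 1, -0.17 without non-targeted array 1, -0.21 without targeted array 2 and 0.033 with array weights. Tgfb2 had the largest difference of them, at 6.55, 6.20 and 6.46 on targeted arrays, against 7.00, 6.62 and 6.53 on non-targeted arrays, which is -0.31 (95% interval -0.74 to 0.12) and -0.17 without non-targeted array 1. Tgfb3 spread widely within both groups, at 9.55, 9.18 and 8.38 in targeted cells, against 9.51, 9.34 and 8.50 in non-targeted cells. The spread within each group (SD 0.60 and 0.54, n = 3 each) was larger than the difference of -0.081, which turned to 0.25 without targeted array 3. Tgfb1, the isoform stored in bone matrix, differed by 0.12 (95% interval -0.38 to 0.62), which turned to -0.058 without non-targeted array 3. Inhba and Inhbb, which encode the activin subunits, differed by -0.11 and -0.25.

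The 4 genes of the latent TGF-beta binding protein family had a median log2 difference of 0.004 (-0.094 to 0.069 when any one array was left out). Ltbp2 was at 10.57, 10.36 and 10.47 on targeted arrays, against 10.37, 10.64 and 10.58 on non-targeted arrays, a difference of -0.067 (95% interval -0.42 to 0.29), which turned to 0.017 under quantile scaling. Ltbp3, whose loss alters the skeleton in mice, was at 9.31, 8.95 and 8.95, against 9.21, 9.42 and 9.05, a difference of -0.16 (95% interval -0.57 to 0.25). Ltbp1 and Ltbp4 differed by 0.074 and 0.13. The arrays of all 4 overlapped.

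All 10 receptor genes tested were lower in targeted cells, with 9 lower under quantile scaling and cyclic loess, where Bmpr2 turned. The count varied with single arrays. Without non-targeted array 2 it was 6 lower and 4 higher, with Bmpr1a at 0.26, Bmpr2 at 0.28, Acvr2b at 0.013 and Tgfbr3 at 0.073, and without targeted array 2 it was 7 and 3. The median of their log2 differences was -0.16 (-0.255 without non-targeted array 1). The targeted arrays were all lower for 1 gene of the 10, or 10%, against 5.76% of all genes. Acvr1, the type I receptor ALK2 that transmits BMP signals in bone and cartilage, was at 8.45, 8.35 and 7.98 on targeted arrays, against 8.79, 8.94 and 8.55 on non-targeted arrays (probe set 10482824). It was 1.42-fold lower (log2 difference -0.50, SE 0.19, 95% interval -0.94 to -0.066), with an unadjusted p of 0.0292 and a limma adjusted p of 0.970. In leave-one-out fits its difference ran from -0.61 to -0.36. Acvrl1, the type I receptor ALK1 best known from endothelium, was at 8.42 to 8.92 in targeted cells, against 8.79 to 9.05 in non-targeted cells (difference -0.29). The endothelial markers beside it had summed intensities of 629 to 760 in targeted cells, against 616 to 825 in non-targeted cells, with a median log2 difference of 0.007, and their part in its level was not tested.

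The remaining receptors differed by less. Bmpr2, the type II receptor for BMPs, was at 11.30, 10.08 and 10.78 on targeted arrays, against 10.19, 11.33 and 10.71 on non-targeted arrays. Its highest values were on targeted array 1 and non-targeted array 2 and its lowest on targeted array 2 and non-targeted array 1, so that both groups covered the same range and the difference was -0.018 (95% interval -0.89 to 0.85). The type I BMP receptor gene Bmpr1a followed the same order of arrays within each group, at 6.91, 5.99 and 6.74 in targeted cells, against 5.96, 7.13 and 6.61 in non-targeted cells. Targeted array 1 and non-targeted array 2 are the arrays that stood together on the first principal component. The difference of Bmpr2 turned to 0.30 without targeted array 2, to 0.28 without non-targeted array 2 and to 0.077 under quantile scaling.

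The activin receptor genes Acvr1b, Acvr2a and Acvr2b differed by -0.18, -0.27 and -0.15. The TGF-beta receptor genes Tgfbr1 and Tgfbr2 differed by -0.17 and -0.12, and Tgfbr3, the co-receptor betaglycan, by -0.091. The 95% intervals of these 6 genes all included no difference, and the widest reached from -0.82 to 0.29, for Acvr2a. Without both targeted array 1 and non-targeted array 2, the median over the receptors was -0.035.

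Of the 8 Smad genes 6 were lower and 2 higher, or 5 and 3 under quantile scaling and cyclic loess. The median of their log2 differences was -0.17, and all overlapped between the groups. It was -0.059 without non-targeted array 2, -0.088 without targeted array 3, -0.10 without non-targeted array 3, -0.11 without targeted array 2 and -0.26 without targeted array 1. Smad4, the partner shared by all signal-carrying Smads, was at 10.44, 10.21 and 10.15 on targeted arrays, against 10.30, 10.88 and 10.51 on non-targeted arrays (difference -0.295, 95% interval -0.74 to 0.15). The highest of the 6 values was again on non-targeted array 2, without which the difference was -0.14. Smad1, Smad5 and Smad9, the BMP-activated Smads, differed by -0.25, -0.17 and -0.16. Smad2, activated by TGF-beta and activin, was at 8.18, 6.73 and 7.71 in targeted cells against 7.35 to 7.59 in non-targeted cells. Its SD in targeted cells, 0.74 (n = 3), was the largest of any member in either group, and its difference was 0.077, with -0.24 without targeted array 1 and 0.48 without targeted array 2. Smad3 differed by -0.036, and the inhibitory genes Smad6 and Smad7 by 0.051 and -0.17.

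The 4 Id genes encode inhibitors of basic helix-loop-helix transcription factors and are transcribed directly in response to BMPs. Their median log2 difference was -0.18, with 3 lower and 1 higher, and none separated the groups. Id2 was at 7.46, 7.89 and 7.85 on targeted arrays, against 7.71, 8.68 and 8.22 on non-targeted arrays, a difference of -0.47 (95% interval -1.08 to 0.14). Id3 was at 11.07, 10.50 and 10.10, against 10.44, 11.27 and 10.61, a difference of -0.22 (95% interval -0.93 to 0.49). Non-targeted array 2 held the highest value of both genes. Without that array the difference of Id2 was -0.23, that of Id3 was 0.027 and the median of the 4 genes was -0.013. Id1, a common readout of BMP signalling, was at 7.66 to 7.88 in targeted cells, against 7.40 to 7.82 in non-targeted cells (difference 0.17, 95% interval -0.22 to 0.55), and Id4 differed by -0.13.

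The antagonists had the lowest median of the 7 classes, -0.295, with 4 of 6 lower and 3 of these lower on every targeted array (50%, where 5.76% of all genes were). Chrdl1, chordin-like 1, a secreted binder of BMPs, was at 11.70, 11.26 and 10.89 on targeted arrays, against 11.75, 12.16 and 11.82 on non-targeted arrays (probe set 10607124). It was 1.54-fold lower (log2 difference -0.63, SE 0.23, 95% interval -1.17 to -0.085), with an unadjusted p of 0.0286 and a limma adjusted p of 0.970. Targeted array 1 lay just under the lowest non-targeted array, and the difference was -0.83 without it. Fst, follistatin, which binds activins, was at 10.22, 10.25 and 9.87, against 10.43, 10.73 and 10.94 (probe set 10412260). It was 1.50-fold lower (log2 difference -0.59, SE 0.19, adjusted p = 0.947), and stayed between -0.72 and -0.47 when any one array was left out.

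Grem1, gremlin 1, a BMP antagonist that marks skeletal stromal cells in mice, was at 10.87, 10.67 and 10.41 on targeted arrays, against 10.91, 11.43 and 11.10 on non-targeted arrays (probe set 10485948). It was 1.41-fold lower (log2 difference -0.50, SE 0.20, adjusted p = 1.00), and its gap between the groups was narrow, 10.87 against 10.91. Without non-targeted array 2 the difference was -0.36. Chrd, chordin, at 6.86 to 6.97 in targeted cells, against 6.70 to 7.16 in non-targeted cells, differed by -0.092. Nog, noggin, was at 7.85 to 8.23 in targeted cells, against 7.65 to 8.26 in non-targeted cells, a difference of 0.064 (95% interval -0.40 to 0.53). Bambi, a membrane pseudoreceptor that dampens TGF-beta and BMP signals, differed by 0.047.

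Markers of CAR cells lay in the same direction as Grem1, Chrdl1, Fst and Chrd. Most osteoblast markers lay in the opposite one, as did Nog and Bambi with their small differences. All 10 CAR cell markers were lower in targeted cells, with a median of -0.24 on the log2 scale and summed intensities of 29708 to 35824, against 35188 to 41968 in non-targeted cells. Of 9 tested osteoblast and osteocyte markers 8 were higher, with a median of 0.845 and sums of 19092 to 29507, against 13558 to 16351, and Mepe was dim. When any one array other than non-targeted array 3 was left out, 7 of these markers were higher and 2 lower. That list holds Dmp1, the gene after which the Cre is named. None of the markers passed over all genes, and their part in the levels of the ligands and antagonists was not tested. The other lists with a median beyond 0.1 were neutrophil genes at -1.16 and pericyte and smooth muscle genes at 0.13. Without targeted array 1 the median of the neutrophil genes was -0.35, with 6 of 9 lower, that of the CAR cell markers -0.41 and that of the osteoblast and osteocyte markers 0.51. Without non-targeted array 1 the CAR cell median was -0.37, and without non-targeted array 2 the pericyte and smooth muscle median was -0.011.

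Within each group the members followed particular arrays. Non-targeted array 2 was the highest of its group for 25 of 48 members (52.1%, against 38.3% of all genes), and targeted array 1 for 22 (45.8%, against 33.6%). Targeted array 3 was the lowest of its group for 20 members (41.7%, against 30% of all genes). The members' mean log2 intensity was 8.359, 8.281 and 8.245 on targeted arrays 1, 2 and 3, and 8.358, 8.523 and 8.369 on non-targeted arrays 1, 2 and 3. The groups overlapped, with targeted array 1 level with non-targeted array 1. The SD between the 3 arrays of a group had a median of 0.22 over the members for targeted arrays and 0.24 for non-targeted arrays.

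**Figure D3:**
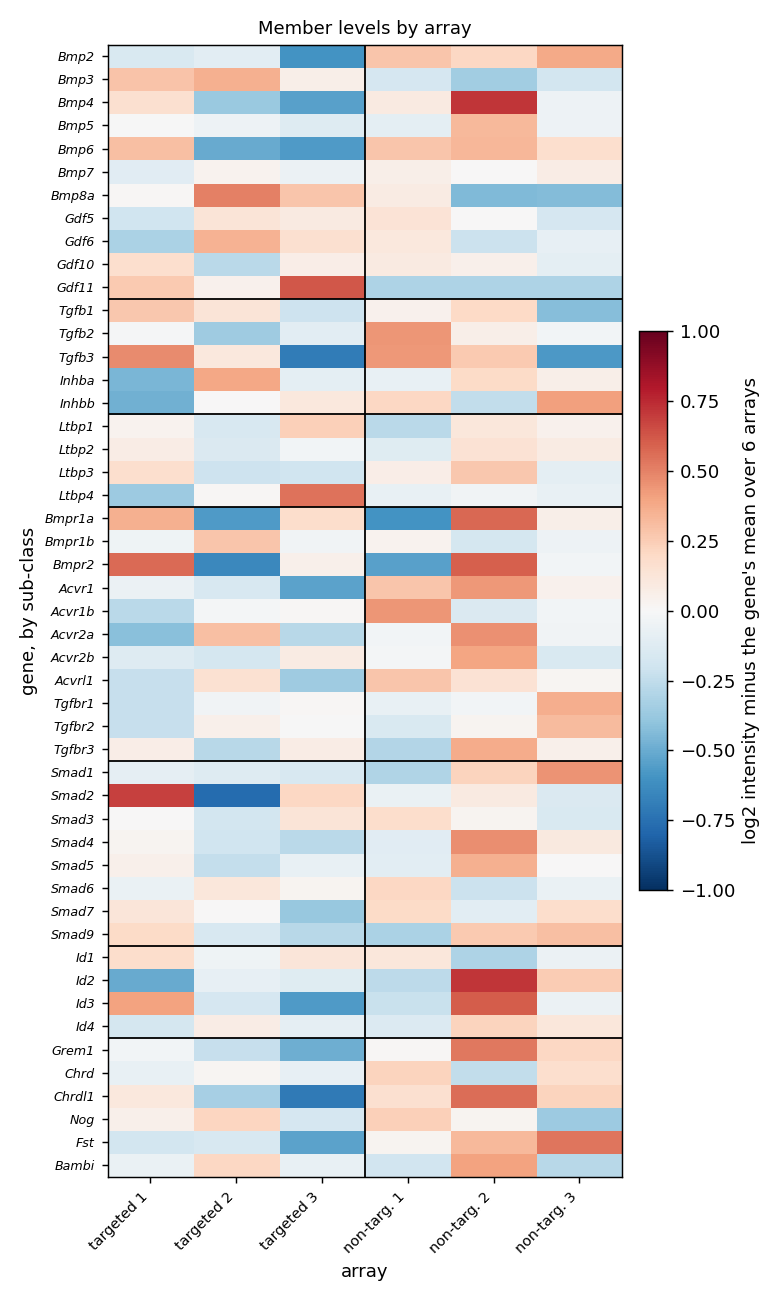
Log2 intensity of each of the 49 members on each array, minus its mean over the 6 arrays; rows follow the role classes in order from ligands to antagonists, and targeted arrays are on the left. No value lies beyond 0.77 from its gene's mean, and the non-targeted array 2 column is the highest of its group in 25 of the 48 genes tested.

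Further genes of both pathways were looked up from a separate list of 80, of which 74 had a value and 62 passed the filter. Of these, 32 were higher and 30 lower. Their log2 differences had a median of 0.034, and 0 passed over all genes (limma; 7 had an unadjusted p under 0.05, where 4.77% of all genes did). Of the 62, the targeted arrays were all higher for 6 genes (9.68%, against 3.32% of all genes) and all lower for 1 (1.61%, against 5.76%). Among 13 other extracellular regulators, Nbl1, a secreted BMP antagonist of the same family as gremlin, was at 7.92, 7.82 and 8.93 on targeted arrays, against 7.09, 7.24 and 7.48 on non-targeted arrays. It was 1.94-fold higher (log2 difference 0.96, SE 0.30, adjusted p = 0.931), and the difference was 0.60 without targeted array 3. Crim1, a membrane protein that binds BMPs, was at 8.56, 8.28 and 8.05, against 8.83, 9.37 and 8.85, which is 1.65-fold lower (log2 difference -0.72, SE 0.21, adjusted p = 0.860). Nbl1 was thus higher on every targeted array, while Crim1, Grem1, Chrdl1 and Fst were lower on every one. Fmod, fibromodulin, a matrix proteoglycan that binds TGF-beta, differed by -0.84 (SE 0.36), with overlapping arrays, and by -0.44 without non-targeted array 2.

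Of 9 genes listed as transcribed after BMP signals, 7 were tested, 5 of them higher and 2 lower, and the median of their log2 differences was 0.37. Hey1, a transcriptional repressor that BMP and Notch signals both induce, was at 9.748, 9.715 and 10.042 on targeted arrays, against 8.997, 9.198 and 9.452 on non-targeted arrays (log2 difference 0.62, SE 0.18, adjusted p = 0.847). Dlx5, a homeobox gene of osteoblasts, was at 9.90, 9.51 and 9.40, against 9.01, 9.28 and 9.04 (difference 0.49). Dlx3, of the same family, differed by 0.44 and Sp7, a transcription factor required for osteoblasts, by 0.37. The targeted arrays of these 4 genes of 7 were all higher (57.1%, where 3.32% of all genes were). Dlx5, Dlx3 and Sp7 are also genes of the osteoblast lineage, whose markers were higher in targeted cells as given above, and Sp7 is itself in that marker list. The others were Atoh8 at 0.12, Msx1 at -0.25 and Gata2 at -0.10.

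Of 10 genes listed as transcribed after TGF-beta signals, 8 were tested, 6 of them higher and 2 lower (7 and 1 under all 3 other scalings), with a median of 0.14 (0.06 to 0.309 when any one array was left out). Col1a1, a chain of type I collagen, was at 10.93, 9.10 and 9.34 in targeted cells, against 8.91, 8.46 and 8.74 in non-targeted cells (difference 1.08, SE 0.45, adjusted p = 1.00), and is also an osteoblast marker. Its targeted value was highest on array 1, without which the difference was 0.51. Fn1, fibronectin, differed by 0.995 (SE 0.58), with overlapping arrays, and by 0.29 without targeted array 1. Ccn2, the classic TGF-beta response gene, differed by 0.13 and Ccn1 by -0.335, with 95% intervals that include no difference. The 12 intracellular regulators of the pathways had a median of -0.094 (-0.185 to 0.052 when any one array was left out), and none of them separated the groups. Their largest differences were -0.32 for the ubiquitin ligase gene Smurf2 and -0.29 for Smurf1, with -0.12 for Smurf2 without targeted array 1 and -0.12 for Smurf1 without non-targeted array 2. Smurf2 had 2 probe sets, of which only the brighter is given.

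**Figure D4:**
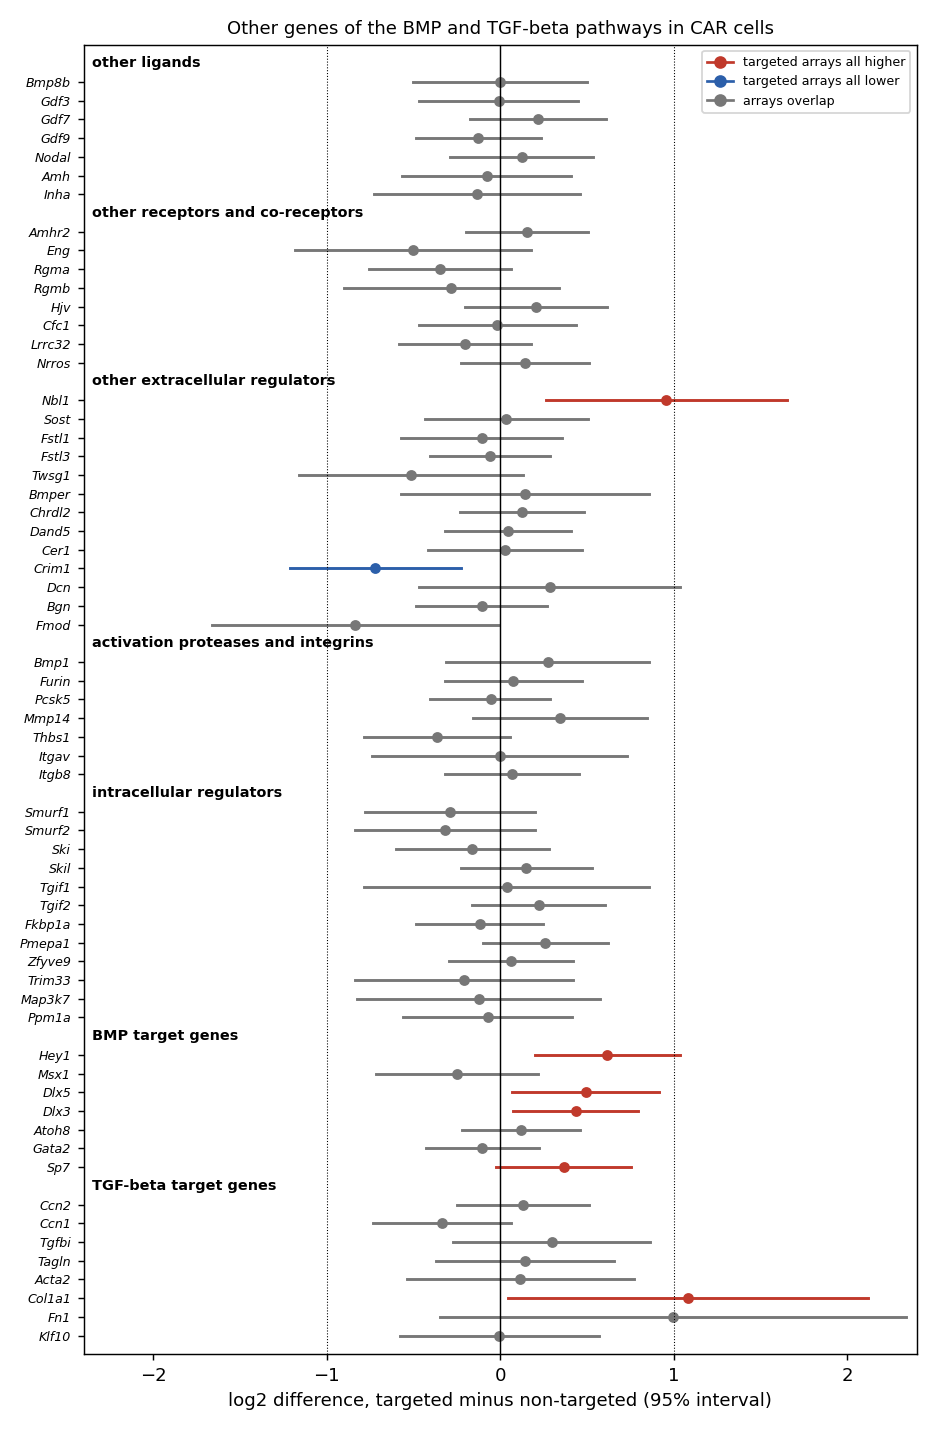
Log2 difference between targeted and non-targeted CAR cells for the 62 further pathway genes tested, by role, with 95% intervals; colours and dotted lines are as for the members. The 6 genes with targeted arrays that were all higher were Nbl1, Hey1, Dlx5, Dlx3, Sp7 and Col1a1, and Crim1 was the 1 gene with targeted arrays that were all lower.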

How the data were processed

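RNA of 3 targeted and 3 non-targeted CAR cell samples was hybridised to Affymetrix mogene 1.0 ST arrays. The deposited values are intensities on a linear scale, made by the authors with the RMA method. The submitters' processing notes name Affymetrix Expression Console 1.4 as the tool. Annotation and build: not given in the sources used here. Log2 was taken before any test. Of 35556 probe sets, 21789 named 1 gene in the platform annotation, 1621 named several and 12146 were unnamed here. Symbols were updated by Entrez identifier through RefSeq (GRCm38.p6), which matched 21698 of them. The brightest probe set by mean over 6 arrays stood for each of 19938 genes, and each of the 49 members had 1. The lowest 33.3% of gene means (up to 6.00) counted as dim, which left 13292 genes to test. No detection calls were used, so low intensities may be background, and intensities of different probe sets were not compared. The number of arrays limits the precision.

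The test was limma's moderated linear model (version 3.58.1, R 4.3.3; lmFit and eBayes, no trend) of targeted minus non-targeted cells over all 6 arrays, without covariates. P-values are two-sided, with Benjamini-Hochberg adjustment over all 13292 genes. Errors are SDs between 3 arrays or moderated SEs. On simulated data with 200 changed genes among 13292 in this comparison, the procedure called 65.1% of those changed 2-fold and 98.2% of those changed 4-fold. The real arrays differed from this setting. In the main fit Dmp1, 9.7-fold higher in targeted cells, had a limma adjusted p of 0.384 and was not called. The simulated shares therefore cannot show which sizes of change the real arrays would have called. Alternatives (17 planned, 1 added after seeing the data) were other filters on dim genes, scalings, variance models, weights per array, averaging the probe sets of a gene, the replicate number as a block, and leaving out arrays.

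The members and all lists were chosen with earlier results of these data known. Every member could be named. Values on each array are given for members with an unadjusted p under 0.05 or non-overlapping arrays and, in each class, for the one with the highest mean intensity and the one with the largest difference. Bmpr1a, Bmp4 and Smad2 were given in more detail after their values were seen. Of the further pathway genes, those with an unadjusted p under 0.05 or non-overlapping arrays are named, and others were added as examples of their class.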

Additional observations from a re-analysis of the deposited data

How the results depend on the processing

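No member passed in any of the 18 alternatives, and the smallest adjusted p of a member in each ran from 0.155 with array weights to 1.00. The count of genes called over the whole table was 1 (Dmp1) with array weights and 1 (Dmp1) with the fixed replicate block, and 0 otherwise. The replicate block, fixed or random, changed no other call. The labels do not say that equal replicate numbers mark 1 mouse. Deviations of same-numbered arrays from their group means correlated at -0.26, -0.12 and 0.065 across genes. Only non-targeted array 3 correlated best with the array of its own number in the other group. Targeted array 1 correlated best with non-targeted array 2, at 0.325. Both arrays with high Xist carried replicate number 1. With the lowest 50% of gene means left out, 43 members were tested and the median of the BMP and GDF ligands was -0.092. Between 31 and 35 of 48 members were lower under the 3 other scalings, where 46.1% to 50% of all genes were. With no filter on dim genes 35 of 49 members were lower, against 43.3% of all genes. With the stricter filter 32 of 43 members were lower, against 55.3% of all genes. Under quantile scaling and cyclic loess Ltbp2 was at 0.017 and 0.013 and Bmpr2 at 0.077 and 0.06, and with array weights Tgfb3 was at 0.28. In leave-one-out fits Bmpr2 ran from -0.31 to 0.30, Tgfb3 from -0.39 to 0.25, Id3 from -0.48 to 0.027 and the median of the Id genes from -0.31 to -0.013. The members with non-overlapping arrays numbered 2 to 5 higher and 5 to 11 lower there (4.85% to 13.5% and 8.58% to 14% of all genes), since fewer arrays overlap less often, and 6 higher and 14 lower without both targeted array 1 and non-targeted array 2 (18.5% and 17.3% of all genes). Of the 48 members 28 kept their sign in all 6 leave-one-out fits, 24 of them lower and 4 higher. The share of all genes that did so was not counted, so these counts have no background beside them. Some of the lower members kept their sign by little, with Chrd reaching -0.004, Acvr1b -0.008 and Ltbp2 -0.011.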
